A study of Mus musculus with 22 samples.

Results

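The genes described here are 35 lysosomal enzymes and membrane genes, listed by name with earlier results of these data known, among 23420 gene symbols counted in mouse inguinal white adipose tissue (IWAT). They comprise 10 cathepsins and other proteases, 9 glycosidases, 6 lipid-handling enzymes and cofactors, 4 membrane proteins, 4 subunits of the vacuolar ATPase and 2 regulators, and all 35 passed the filter on low counts, which kept 14458 genes. RNA was sequenced from both inguinal fat pads of 11 female C57Bl/6 mice. The left pad had been injected with E0771 cells, a mouse breast cancer line of C57Bl/6 origin, in PBS and Matrigel, and is called tumor-associated IWAT. The right pad of the same animal, which got PBS and Matrigel without tumor cells, is called control IWAT. Lean mice (n = 5) were fed chow and obese mice (n = 6) a high-fat diet (HFD) for 16 weeks. The mice were about 20 weeks old at injection, and tissue was taken 2 weeks later. The inguinal lymph node was removed and tissue at the tumor border was discarded. The 4 groups thus are lean control (5 libraries), lean tumor-associated (5), obese control (6) and obese tumor-associated IWAT (6), and mice are named by the number in their labels.

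Lysosomes are acidic organelles in which proteins, glycans and lipids taken up from outside or delivered by autophagy are broken down. Their hydrolases work at the low pH that the vacuolar ATPase, a proton pump, maintains, and heavily glycosylated membrane proteins line the organelle. Many lysosomal genes carry a CLEAR element near their start, which the transcription factor TFEB binds. In adipose tissue lysosomes are abundant in macrophages, which clear dead adipocytes and their lipid, and they are present in adipocytes too.

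Libraries held between 5759775 and 8598108 counts on genes, and a member had between 48 and 20727 counts in a library. Some libraries stood apart. The summed level of 10 germline and embryonic genes, a list picked earlier because it sets these libraries apart, was 441.1, 40.1, 509.3, 171.5, 999.7 and 101.7 CPM (the share of a library's counts, scaled to a common total with TMM normalization) in the tumor-associated pads of obese mice 0, 1, 2, 3, 4 and 8, and at most 85.7 CPM in every other library. Obese control mice 1 and 3 had 647.5 and 576.5 CPM of 6 B cell genes, against 2.15 to 13.4 CPM in the other obese control libraries. Obese control mouse 1 also had 2246 CPM of 6 skeletal muscle genes (13.7 to 40.5 CPM in the other obese control libraries), obese tumor-associated mouse 8 had 227.6 CPM of these, and obese tumor-associated mouse 3 had 149.3 CPM of the B cell genes. Calls of members that were lost without obese tumor-associated mice 0, 2 and 4, or without obese control mice 1 and 3, are given beside the member. In these bulk libraries a change in the share of a cell type and a change in RNA per cell cannot be told apart. Adipocyte markers were present in every library, with a summed level between 2213 and 28700 CPM for 12 genes.

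A gene was called higher or lower at a Benjamini-Hochberg adjusted p under 0.05 in edgeR's quasi-likelihood test, fitted to all 22 libraries and all 14458 genes. Changes are log2 fold changes of that fit, with SE for their standard error. In lean mice 4 members were higher near the tumor (Ctsc, Ctsh, Ctss and Grn) and 0 lower, where 4.18% of all genes tested were called, 3.27% higher and 0.913% lower. By an unadjusted p under 0.05, 13 members and 16.1% of all genes passed, and DESeq2 called 6 members. With 1 library left out the 605 genes called in lean mice became 183 (without lean tumor-associated mouse 2) to 952 (without obese tumor-associated mouse 4), and the 2468 called between the control pads 1606 (without lean control mouse 6) to 3428 (without obese tumor-associated mouse 4), so the shares of all genes move as well as the member counts. In obese mice 19 members were higher and 1 lower in tumor-associated IWAT, where 54.5% of genes were called, 26.8% higher and 27.7% lower. At an unadjusted p under 0.05 there were 22 members (62.9%) in this comparison, near the 60.3% of all genes. Obese control IWAT had 16 members higher and 0 lower than lean control IWAT (21 members and 31.5% of genes at an unadjusted p under 0.05, 16 members with DESeq2), where 17.1% of genes were called, 9.54% higher and 7.53% lower. Obese tumor-associated IWAT had 19 members higher and 0 lower than lean tumor-associated IWAT (22 members and 54.4% of genes at an unadjusted p under 0.05, 19 members with DESeq2), where 47% of genes were called, 24.7% higher and 22.4% lower. In the same 4 comparisons 4, 9, 15 and 13 members had every library of the first group above every library of the other, beside 5.33%, 9.95%, 7.44% and 11% of all genes. The reverse held for 0 members in each, beside 3.03%, 9.66%, 5.59% and 13.4% of all genes. The median log2 fold change of the members was 0.25, 0.33, 0.37 and 0.42 in these 4 comparisons, beside 0.01, -0.02, 0.04 and 0.03 for all genes tested. The comparisons share libraries, so their counts are given side by side and are not independent. For DESeq2 the share of all genes called is not given here, so its member counts stand without a background.

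**Figure D1:**
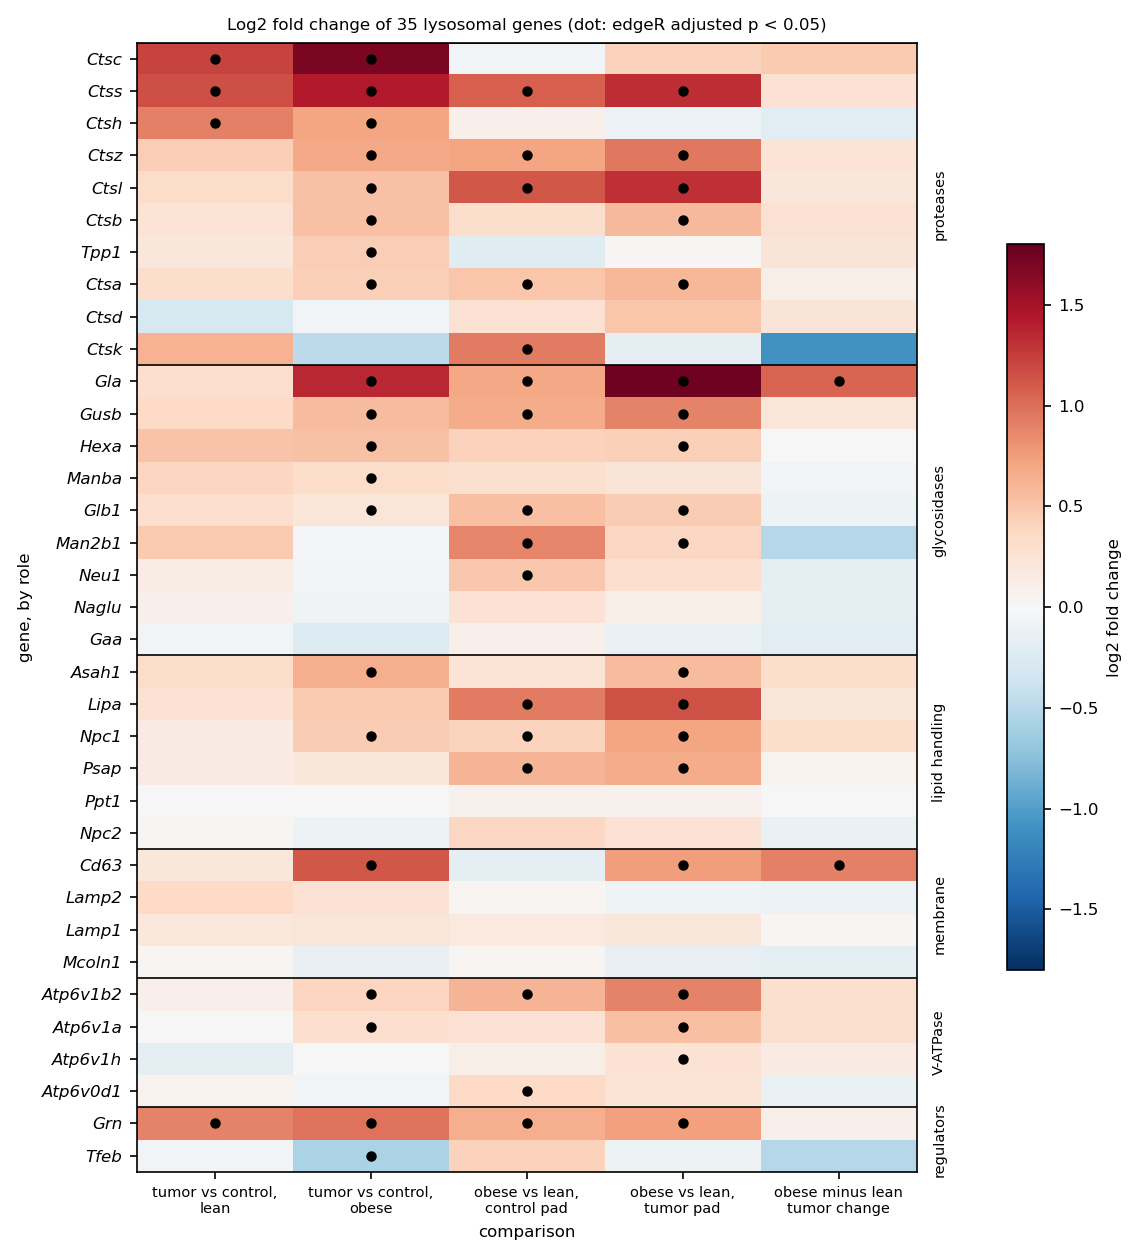
Log2 fold changes of the 35 members (rows, by role) in the 4 pairwise comparisons and in the difference of the tumor changes (columns), with red for higher and blue for lower values and a dot where edgeR's adjusted p was under 0.05. Ctss and Grn carry a dot in all 4 pairwise comparisons, whereas Ctsd, Gaa, Naglu, Ppt1, Npc2, Lamp1, Lamp2 and Mcoln1 carry none.

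The members fell into sets by how often they were called. Ctss and Grn were called in all 4 pairwise comparisons, 8 members in 3, 10 in 2, 7 in 1 and 8 in none. The 8 that were never called include some of the genes by which lysosomes are usually recognized, such as Lamp1 and Lamp2, the main membrane glycoproteins, and Ctsd, the aspartic protease. Levels per kilobase divide by all annotated exons of a gene merged, while the annotation used for counting is not known, so their order is approximate. In lean control IWAT Ctsd was the highest member with 486 ± 131 CPM per kb (SD, n = 5). Ctsd shares 808 of its 2351 exon bases with Gm49369 on the same strand. Psap, the precursor of the saposins that help hydrolases reach lipids, followed with 464 ± 44.9, a difference smaller than the spread between mice. Ctsb had 209 ± 15.4 and Lamp1 163 ± 12.8 CPM per kb. The lowest members were Gla with 3.46 ± 0.280 and Tfeb with 2.07 ± 0.312 CPM per kb (SD, n = 5 for each).

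The proteases held the largest changes near a tumor. In lean mice 3 of 10 were higher in tumor-associated IWAT (Ctsc, Ctsh and Ctss), and in obese mice 8 of 10, these 3 with Ctsa, Ctsb, Ctsl, Ctsz and Tpp1. Ctsc encodes cathepsin C, a dipeptidyl peptidase that activates serine proteases of immune cells, and lies on chromosome 7 from 88278085 to 88310888 (GENCODE annotation on GRCm38, used for all gene positions). It was at 113, 111, 107, 98.7 and 135 CPM in the control pads of lean mice 0, 2, 3, 6 and 9, and at 312, 379, 233, 171 and 223 CPM in their tumor-associated pads. In obese mice it ranged from 82.7 to 143 CPM (median 100 CPM) in control pads and from 234 to 446 CPM (median 380 CPM) in tumor-associated pads. Every tumor-associated library lay above every control library in both diets. Ctsc rose by 1.22 on the log2 scale in lean mice (SE 0.21, edgeR adjusted p = 0.00188), and its rise in obese mice was 1.70 (SE 0.19, edgeR adjusted p = 3.53e-06). Between the diets it was not called in either pad, with log2 fold changes of -0.06 in control and 0.42 in tumor-associated IWAT.

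Ctss, the cathepsin that trims the invariant chain in antigen-presenting cells, lies on chromosome 3 from 95526786 to 95556403, next to Ctsk (95499256 to 95509362). It was at 72.2, 117, 53.1, 48.6 and 142 CPM in the control and at 272, 246, 186, 114 and 154 CPM in the tumor-associated pads of lean mice 0, 2, 3, 6 and 9. In obese mice it was 137 to 248 CPM (median 172 CPM) in control and 318 to 598 CPM (median 523 CPM) in tumor-associated pads. The lean groups overlapped, since control mouse 9 lay above tumor-associated mouse 6, while each lean mouse had more in its tumor-associated pad. The tumor change was 1.16 in lean (SE 0.28, edgeR adjusted p = 0.0233) and 1.42 in obese mice (SE 0.26, edgeR adjusted p = 0.000214). Obese exceeded lean mice by 1.08 in control IWAT (SE 0.27, edgeR adjusted p = 0.0107) and by 1.33 in tumor-associated IWAT (SE 0.27, edgeR adjusted p = 0.000649). The lean call was lost without any one of lean control mice 0, 3 or 6 or lean tumor-associated mice 0 or 2 (edgeR adjusted p up to 0.0962). Without obese control mice 1 and 3, which were also the highest of their group for Ctss, the control pad difference was 0.86 and no longer called (edgeR adjusted p = 0.0611).

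Ctsh, an aminopeptidase of the same family, had mean levels of 79.5 ± 14.2 CPM in lean control, 150 ± 21.1 CPM in lean tumor-associated, 84.7 CPM (63.6 to 113 CPM) in obese control and 139 ± 38.9 CPM in obese tumor-associated IWAT (SD, n = 5 for lean and 6 for obese). It rose by 0.91 in lean and 0.72 in obese mice (edgeR adjusted p = 0.0118 and 0.00257), in 5 of 5 and 6 of 6 mice. Without lean tumor-associated mouse 2 the lean call was lost (edgeR adjusted p = 0.0515). The diets did not differ detectably for Ctsh in control (0.09) or tumor-associated IWAT (-0.11).

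Ctsl and Ctsz were higher in obese mice in both pads. Ctsl, an endopeptidase, was 325, 255, 310, 261 and 286 CPM in lean control and 368, 477, 343, 249 and 371 CPM in lean tumor-associated pads of mice 0, 2, 3, 6 and 9. In obese mice it was 455 to 831 CPM (median 593 CPM) in control and 799 to 1150 CPM (median 832 CPM) in tumor-associated pads. All obese libraries of a pad lay above all lean libraries of that pad. The obese excess was 1.12 in control (SE 0.17, edgeR adjusted p = 0.00017) and 1.32 in tumor-associated IWAT (SE 0.17, edgeR adjusted p = 1.51e-05). The tumor change was 0.33 in lean mice (not called) and 0.53 in obese mice (edgeR adjusted p = 0.00871), a call lost without obese control mice 1 and 3 (0.36, edgeR adjusted p = 0.0707). Ctsl shares exon bases with 2 neighboring genes in the annotation, 1 of them on the same strand. Ctsz, a carboxypeptidase, was 128, 102, 115, 110 and 125 CPM in the control and 158, 203, 166, 120 and 140 CPM in the tumor-associated pads of lean mice 0, 2, 3, 6 and 9. Obese mice had 169 to 233 CPM (median 184 CPM) in control and 239 to 342 CPM (median 310 CPM) in tumor-associated pads. Each obese group was above its lean counterpart without overlap, by 0.71 in control and 0.95 in tumor-associated IWAT (edgeR adjusted p = 0.000549 and 1.32e-05). Its tumor change was 0.44 in lean (edgeR adjusted p = 0.0529, with 0.0138 to 0.27 over the alternatives) and 0.68 in obese mice (edgeR adjusted p = 0.000105).

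Ctsa, which forms a complex with the glycosidases Glb1 and Neu1 and protects them, was 117, 115, 118, 96.3 and 131 CPM in the control and 152, 167, 148, 102 and 152 CPM in the tumor-associated pads of lean mice 0, 2, 3, 6 and 9. In obese mice the range was 142 to 184 CPM (median 164 CPM) in control and 165 to 252 CPM (median 230 CPM) in tumor-associated pads. Lean mouse 6 stood out with little difference between its pads. Ctsa was higher in obese tumor-associated than in obese control IWAT by 0.43 (edgeR adjusted p = 0.00532), and higher in obese than in lean mice by 0.50 in control and 0.60 in tumor-associated IWAT (edgeR adjusted p = 0.0101 and 0.000741). Its exons overlap those of Pltp and Neurl2 on the other strand, and the strand setting of the counting is not stated. Ctsb, an abundant cysteine protease, rose by 0.52 in obese mice (edgeR adjusted p = 0.0114), a call lost without obese control mice 1 and 3 (0.38, edgeR adjusted p = 0.081). Tpp1, a tripeptidyl peptidase, rose by 0.44 (edgeR adjusted p = 0.00191).

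Ctsk, a collagen-degrading cathepsin best known from osteoclasts, went its own way among the proteases. It ranged from 22.9 to 55.8 CPM (median 38.1 CPM) in lean control, from 34.6 to 79.7 CPM (median 72.6 CPM) in lean tumor-associated, from 57.0 to 108 CPM (median 75.1 CPM) in obese control and from 21.5 to 74.3 CPM (median 64.5 CPM) in obese tumor-associated IWAT. The tumor change had opposite signs in the diets, 0.62 in lean and -0.47 in obese mice, neither of them called (edgeR adjusted p = 0.321 and 0.15). The obese minus lean difference was -1.10 (SE 0.41, edgeR adjusted p = 0.0826, with 0.0493 to 0.314 over the alternatives), and it passed the threshold without obese tumor-associated mouse 1. Only the control pad difference between the diets was called, 0.93 (edgeR adjusted p = 0.0339), and this was lost without any one of lean control mice 2, 3 or 6 or obese control mice 0 or 8. Ctsd, in turn, was 1142 ± 308, 939 ± 116, 1377 ± 414 and 1327 ± 476 CPM in the 4 groups in the same order (SD), with no comparison called and all groups overlapping.

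**Figure D2:**
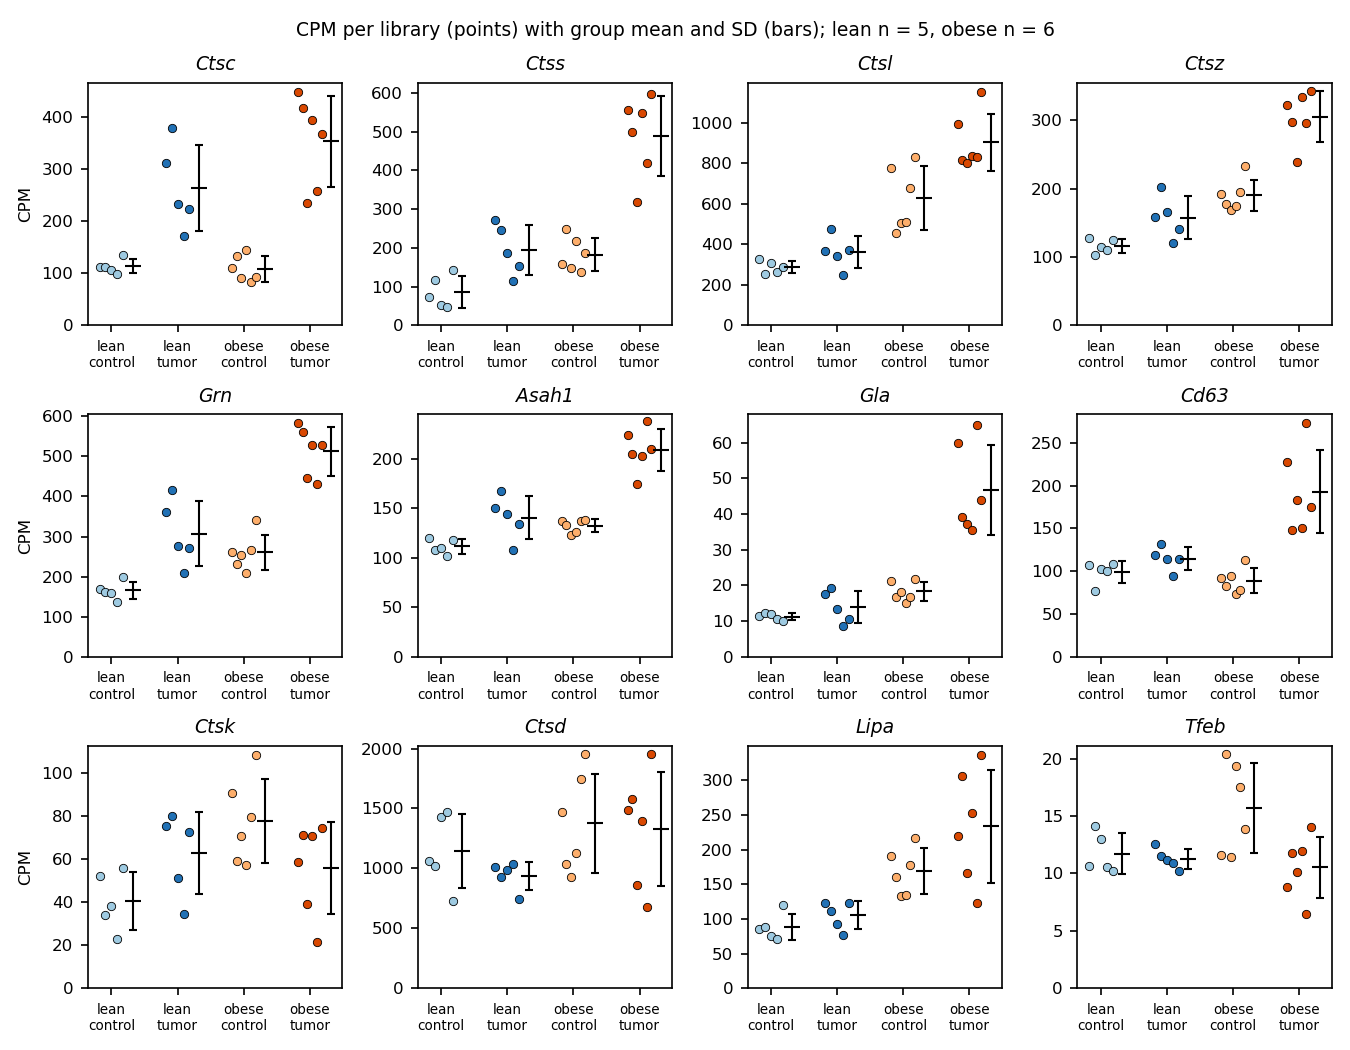
Level in CPM (vertical axes, from 0) of 12 members in each library, by group on the horizontal axes, with the group mean and SD as bars (n = 5 for lean and 6 for obese groups). Ctsc is separated by pad in both diets, Ctsl in obese libraries lies above the lean libraries of the same pad, Gla and Cd63 are high in obese tumor-associated libraries, and Ctsd overlaps in all 4 groups.

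No glycosidase was called in lean mice, where 8 of 9 had positive changes, the largest 0.52 for Hexa. In obese mice 5 of 9 were higher in tumor-associated IWAT. Gla, the alpha-galactosidase that degrades globotriaosylceramide, lies on chromosome X from 134588149 to 134601125. It was 11.4, 12.2, 12.1, 10.6 and 10.2 CPM in the control and 17.6, 19.3, 13.4, 8.75 and 10.7 CPM in the tumor-associated pads of lean mice 0, 2, 3, 6 and 9. In obese control pads it ranged from 15.0 to 21.8 CPM (median 17.6 CPM), and in the tumor-associated pads of obese mice 0, 1, 2, 3, 4 and 8 it was 59.8, 39.2, 37.2, 35.6, 65.1 and 43.9 CPM. The lean pads overlapped, and all 6 obese tumor-associated libraries lay above all other libraries. Near the tumor the change was 0.30 in lean (SE 0.20, edgeR adjusted p = 0.56) but 1.35 in obese mice (SE 0.18, edgeR adjusted p = 1.59e-05). Obese mice exceeded lean mice by 0.70 in control (edgeR adjusted p = 0.0187) and by 1.75 in tumor-associated IWAT (edgeR adjusted p = 5.3e-06), the largest log2 fold change among the members in that comparison.

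Gusb, beta-glucuronidase, was 58.9, 57.7, 60.6, 63.9 and 58.3 CPM in the control and 76.3, 91.4, 77.8, 60.8 and 77.4 CPM in the tumor-associated pads of lean mice 0, 2, 3, 6 and 9. Obese mice had 77.7 to 112 CPM (median 95.8 CPM) in control and 103 to 193 CPM (median 149 CPM) in tumor-associated pads, above the lean libraries of the same pad without overlap. The obese tumor change was 0.58 (edgeR adjusted p = 0.00121), and the excess over lean mice was 0.67 in control and 0.89 in tumor-associated IWAT (edgeR adjusted p = 0.00248 and 6.31e-05). Glb1, beta-galactosidase, had narrow groups, 32.5, 31.5, 34.8, 34.5 and 32.04 CPM in the control and 41.4, 45.5, 39.5, 39.6 and 38.5 CPM in the tumor-associated pads of the same lean mice. Its lean pads did not overlap, though the lean change of 0.31 was not called (edgeR adjusted p = 0.0808). In obese mice Glb1 ranged from 39.9 to 57.3 CPM (median 48.3 CPM) in control and from 48.4 to 65.9 CPM (median 56.3 CPM) in tumor-associated pads, which overlapped. The obese change of 0.22 was called (edgeR adjusted p = 0.0356) but lost in 10 of the 22 fits that drop 1 library, and without obese control mice 1 and 3 it was 0.14 (edgeR adjusted p = 0.206). Without obese tumor-associated mice 0, 2 and 4 it was 0.23 (edgeR adjusted p = 0.068). The obese excess, 0.54 in control and 0.45 in tumor-associated IWAT (edgeR adjusted p = 0.000549 and 0.000556), was called in every alternative.

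Hexa, the alpha subunit of beta-hexosaminidase, was 105, 85.0, 95.5, 81.3 and 109 CPM in the control and 160, 158, 119, 106 and 139 CPM in the tumor-associated pads of lean mice 0, 2, 3, 6 and 9. In obese mice it was 114 to 143 CPM (median 126 CPM) in control and 108 to 230 CPM (median 203 CPM) in tumor-associated pads, where mouse 4 was lowest. Its tumor change was 0.52 in lean (edgeR adjusted p = 0.112) and 0.53 in obese mice (edgeR adjusted p = 0.00879), of which only the latter was called. The obese minus lean difference was 0.01 (SE 0.24). Between the tumor-associated pads Hexa was 0.42 higher in obese mice (edgeR adjusted p = 0.0442), a call lost without obese control mice 1 and 3 (edgeR adjusted p = 0.0528) and in 11 of the 22 fits that drop 1 library. Manba, beta-mannosidase, rose by 0.33 in obese mice (edgeR adjusted p = 0.0228), a call lost without any one of obese control mice 1 or 2 or obese tumor-associated mouse 8, and without obese control mice 1 and 3 together (0.28, edgeR adjusted p = 0.0876). With the mouse as a block in the fit, Manba and Man2b1, the alpha-mannosidase, were called higher in lean mice (edgeR adjusted p = 0.0282 and 0.0355). Man2b1 was 0.88 higher in obese than in lean control IWAT (edgeR adjusted p = 0.000578), while its tumor change in obese mice was -0.04. Its excess of 0.38 in obese tumor-associated IWAT (edgeR adjusted p = 0.0465) was lost without obese control mice 1 and 3 (edgeR adjusted p = 0.055) and in 14 of the 22 fits. Neu1, a sialidase, was higher in obese control IWAT by 0.48 (edgeR adjusted p = 0.0226, lost without lean control mouse 2 or 6, and without obese control mice 1 and 3 with an edgeR adjusted p of 0.0584). Gaa, the acid alpha-glucosidase that degrades glycogen, had the lowest obese tumor change of the glycosidases, -0.25 (edgeR adjusted p = 0.0503), and was called lower under DESeq2 (adjusted p = 0.0377) and with upper-quartile or RLE normalization. Naglu, an enzyme of heparan sulfate breakdown, was called in no comparison, with log2 fold changes between -0.07 and 0.27.

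Among the lipid-handling genes, none of 6 was called in lean mice and 2 of 6, Asah1 and Npc1, were higher in obese tumor-associated IWAT. Asah1, acid ceramidase, was 120, 107, 110, 101 and 118 CPM in the control and 150, 167, 144, 108 and 134 CPM in the tumor-associated pads of lean mice 0, 2, 3, 6 and 9. Obese mice had 123 to 138 CPM (median 135 CPM) in control and 175 to 238 CPM (median 207 CPM) in tumor-associated pads, with no overlap. Its rise in obese mice was 0.66 (SE 0.09, edgeR adjusted p = 1.9e-05) and had a change of 0.33 in lean mice (SE 0.10, edgeR adjusted p = 0.0595, with 0.00725 to 0.303 over the alternatives). Npc1, the membrane protein that exports cholesterol from lysosomes, was 69.2, 68.8, 66.0, 56.1 and 86.3 CPM in the control and 83.3, 76.3, 70.4, 66.3 and 87.1 CPM in the tumor-associated pads of the lean mice in the same order. In obese mice it was 85.8 to 94.0 CPM (median 92.2 CPM) in control and 114 to 143 CPM (median 125 CPM) in tumor-associated pads. Its obese tumor change was 0.46 (edgeR adjusted p = 0.000316), and the obese excess was 0.40 in control and 0.71 in tumor-associated IWAT (edgeR adjusted p = 0.00563 and 1.51e-05).

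Lipa, the acid lipase that hydrolyzes cholesteryl esters and triglycerides in lysosomes, differed by diet. Its mean was 88.5 ± 19.2 CPM in lean control, 106 ± 20.3 CPM in lean tumor-associated, 169 ± 32.8 CPM in obese control and 234 ± 81.5 CPM in obese tumor-associated IWAT (SD, n = 5 for lean and 6 for obese). The obese excess was 0.93 in control and 1.15 in tumor-associated IWAT (edgeR adjusted p = 0.00592 and 0.000355). The tumor change in obese mice was 0.47 (edgeR adjusted p = 0.0574). It was called with the mouse as a block (0.41, edgeR adjusted p = 0.0491) and without obese tumor-associated mice 0, 2 and 4 (0.81, edgeR adjusted p = 0.00241). Psap was higher in obese mice by 0.61 in control and 0.67 in tumor-associated IWAT (edgeR adjusted p = 0.00893 and 0.00126), with a tumor change of 0.21 in obese mice that was not called. Npc2, the soluble partner of Npc1, and Ppt1, a thioesterase, were called in no comparison, and the 4 log2 fold changes of Ppt1 lay between 0.00 and 0.08.

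Of the membrane proteins only Cd63, a tetraspanin of late endosomes, lysosomes and exosomes, was called in any comparison. Cd63 lies on chromosome 10 from 128900989 to 128912822. It was 108, 77.3, 103, 99.96 and 108 CPM in the control and 119, 132, 114, 94.9 and 114 CPM in the tumor-associated pads of lean mice 0, 2, 3, 6 and 9. In obese control pads it ranged from 73.3 to 113 CPM (median 87.5 CPM), and in the tumor-associated pads of obese mice 0, 1, 2, 3, 4 and 8 it was 228, 148, 183, 151, 273 and 176 CPM. All 6 obese tumor-associated libraries were above all other libraries, which overlapped one another. The tumor change was 0.21 in lean (edgeR adjusted p = 0.618) and 1.12 in obese mice (SE 0.14, edgeR adjusted p = 1.03e-05). Obese exceeded lean mice by 0.75 in tumor-associated IWAT (edgeR adjusted p = 0.000504), and the control pads differed by -0.16. Lamp2, a membrane glycoprotein with a part in chaperone-mediated autophagy, was 346, 341, 386, 324 and 378 CPM in the control and 477, 542, 459, 345 and 459 CPM in the tumor-associated pads of lean mice 0, 2, 3, 6 and 9. In obese mice it was 310 to 436 CPM (median 367 CPM) in control and 297 to 522 CPM (median 460 CPM) in tumor-associated pads. The pads overlapped in both diets, and its changes of 0.36 in lean and 0.25 in obese mice were not called. Lamp1 was called in no comparison, with changes between 0.17 and 0.21, and Mcoln1, a calcium channel of the lysosomal membrane, lay between -0.15 and 0.03.

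The 4 vacuolar ATPase subunits were not called in lean mice, where their changes lay between -0.16 and 0.09. Atp6v1b2, a subunit of the ATP-hydrolyzing V1 part, was 96.5, 96.6, 103, 93.1 and 113 CPM in the control and 119, 117, 105, 93.2 and 99.5 CPM in the tumor-associated pads of lean mice 0, 2, 3, 6 and 9. Obese mice had 124 to 198 CPM (median 149 CPM) in control and 172 to 238 CPM (median 200 CPM) in tumor-associated pads, above the lean libraries of the same pad. The obese tumor change was 0.38 (edgeR adjusted p = 0.00464), and the obese excess was 0.60 in control and 0.90 in tumor-associated IWAT (edgeR adjusted p = 0.000949 and 1.02e-05). Atp6v1h, a V1 subunit that couples pumping to ATP use, was 76.4, 72.1, 91.6, 86.6 and 72.6 CPM in the control and 66.6, 77.7, 73.4, 69.8 and 69.7 CPM in the tumor-associated pads of the same lean mice. It ranged from 73.3 to 98.4 CPM (median 87.1 CPM) in obese control and from 79.2 to 92.4 CPM (median 84.2 CPM) in obese tumor-associated pads. The pads differed in neither diet by more than the spread, and only the excess of obese over lean tumor-associated IWAT was called, 0.26 (edgeR adjusted p = 0.0178, lost without lean tumor-associated mouse 0, and without obese tumor-associated mice 0, 2 and 4 with an edgeR adjusted p of 0.0514). Atp6v1a, the catalytic subunit, rose by 0.30 in obese tumor-associated IWAT (edgeR adjusted p = 0.0392), a call lost in 10 of the 22 fits that drop 1 library and without obese control mice 1 and 3 (0.18, edgeR adjusted p = 0.242). Atp6v0d1, of the membrane-embedded V0 part, was higher in obese control IWAT by 0.36 (edgeR adjusted p = 0.0254, lost in 6 of 22 such fits).

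Grn encodes progranulin, a secreted and lysosomal protein that is cut into granulins, and lies on chromosome 11 from 102430315 to 102437048. It was 170, 162, 159, 137 and 199 CPM in the control and 360, 416, 276, 210 and 271 CPM in the tumor-associated pads of lean mice 0, 2, 3, 6 and 9. Obese mice had 209 to 340 CPM (median 258 CPM) in control and 432 to 582 CPM (median 528 CPM) in tumor-associated pads. In each diet all tumor-associated libraries lay above all control libraries, and in each pad all obese libraries lay above all lean ones. Grn rose near the tumor by 0.89 in lean (SE 0.16, edgeR adjusted p = 0.00268) and 0.98 in obese mice (SE 0.15, edgeR adjusted p = 3.87e-05). It was higher in obese mice by 0.65 in control and 0.74 in tumor-associated IWAT (edgeR adjusted p = 0.0062 and 0.000676). The obese minus lean difference of the tumor change was 0.09 (SE 0.22).

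Tfeb was the only member called lower in any comparison. It was 11.7 ± 1.77 CPM in lean control, 11.3 ± 0.870 CPM in lean tumor-associated, 15.7 ± 3.93 CPM in obese control and 10.5 ± 2.67 CPM in obese tumor-associated IWAT (SD, n = 5 for lean and 6 for obese). It fell by 0.57 in obese mice (SE 0.18, edgeR adjusted p = 0.00975), with 5 of 6 mice showing the fall. The call was lost without obese control mice 1 and 3, which had the 2 highest levels of the group, 20.4 and 19.4 CPM (edgeR adjusted p = 0.0838), and without obese tumor-associated mice 0, 2 and 4 (edgeR adjusted p = 0.175). Whether the B cell RNA of the 2 control libraries has a part in the change was not tested.

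RefSeq promoter windows (250 bases before to 50 after a start, build GRCm38.p6) were at hand for 29 of the 35 members. The palindrome TCACGTGA, the center of the CLEAR element that TFEB binds, was in the windows of 6 members (20.7%), and of 1.12% of 27025 genes. The members were listed as lysosomal genes, many of which are known to carry this element. A higher share among them therefore follows from that choice and is no separate result. Its core CACGTG, which every TCACGTGA contains and which reads the same on both strands, was in those of 11 members (37.9%) and of 8.09% of all genes. The 6 members were Ctsa, Ctsd, Mcoln1, Atp6v0d1, Atp6v1a and Gla. Their sites that lie before the start are shown with up to 11 bases on either side, as a feature that these members share by sequence. They are printed in the direction of the gene and with TCACGTGA in capitals. In the GENCODE annotation an exon of the gene itself reaches into the window shown for Ctsa, Ctsd and Mcoln1, and an exon of Hnrnph2 on the other strand into those of Gla.
Ctsa, chr2:164833749-164833772, plus strand: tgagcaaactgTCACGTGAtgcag
Ctsd, chr7:142387908-142387937, minus strand: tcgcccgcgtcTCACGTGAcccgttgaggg
Mcoln1, chr8:3500462-3500491, plus strand: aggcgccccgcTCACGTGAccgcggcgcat
Atp6v1a, chr16:44139373-44139402, minus strand: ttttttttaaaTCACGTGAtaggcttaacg
Gla, first site, chrX:134601215-134601244, minus strand: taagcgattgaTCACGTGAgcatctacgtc
Gla, second site, chrX:134601182-134601211, minus strand: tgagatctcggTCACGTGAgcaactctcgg

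The 6 members with the palindrome did not move as one. In obese mice 3 of them (Ctsa, Atp6v1a and Gla) were higher in tumor-associated IWAT, with a median log2 fold change over the 6 of 0.12, beside 11 higher and 1 lower of the 23 members without it and a median of 0.25. In lean mice 0 of the 6 and 3 of the 23 passed the test. For obese over lean control IWAT 3 of the 6 and 11 of the 23 were higher.

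The obese minus the lean tumor change tests whether the diets differ in it. Gla and Cd63 were called, both rising more in obese mice, and 33 members were not, where 4.92% of all genes were called, 2.58% with a positive and 2.34% with a negative difference. The difference was 1.05 for Gla (SE 0.27, edgeR adjusted p = 0.0463) and 0.91 for Cd63 (SE 0.21, edgeR adjusted p = 0.0379). At an unadjusted p under 0.05 there were 6 members (17.1%), a smaller share than the 32.9% of all genes. When each library was dropped in turn, Gla lost its call in 15 of 22 fits and Cd63 in 14 of 22, for both among them the fits without any 1 of the 5 lean control libraries and without obese tumor-associated mouse 0 or 2. The differences were 0.82 (edgeR adjusted p = 0.132) and 0.63 (edgeR adjusted p = 0.111) when obese tumor-associated mice 0, 2 and 4 were all dropped, and without obese control mice 1 and 3 that of Gla was 0.97 (edgeR adjusted p = 0.0537), while the tumor changes within obese mice were still called without those 3 tumor-associated libraries, 1.10 for Gla and 0.82 for Cd63. The adjusted p of the difference ranged over the alternatives of edgeR and DESeq2 from 0.0088 to 0.132 for Gla and from 0.00279 to 0.111 for Cd63. Of the 19 members called higher in obese mice, 15 were not called in lean mice, but only for Gla and Cd63 was the difference between the diets itself called. Leaving out a library also moved the number of members called in lean mice from 4 to between 2 (without lean tumor-associated mouse 2) and 9 (without lean tumor-associated mouse 6).

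**Figure D3:**
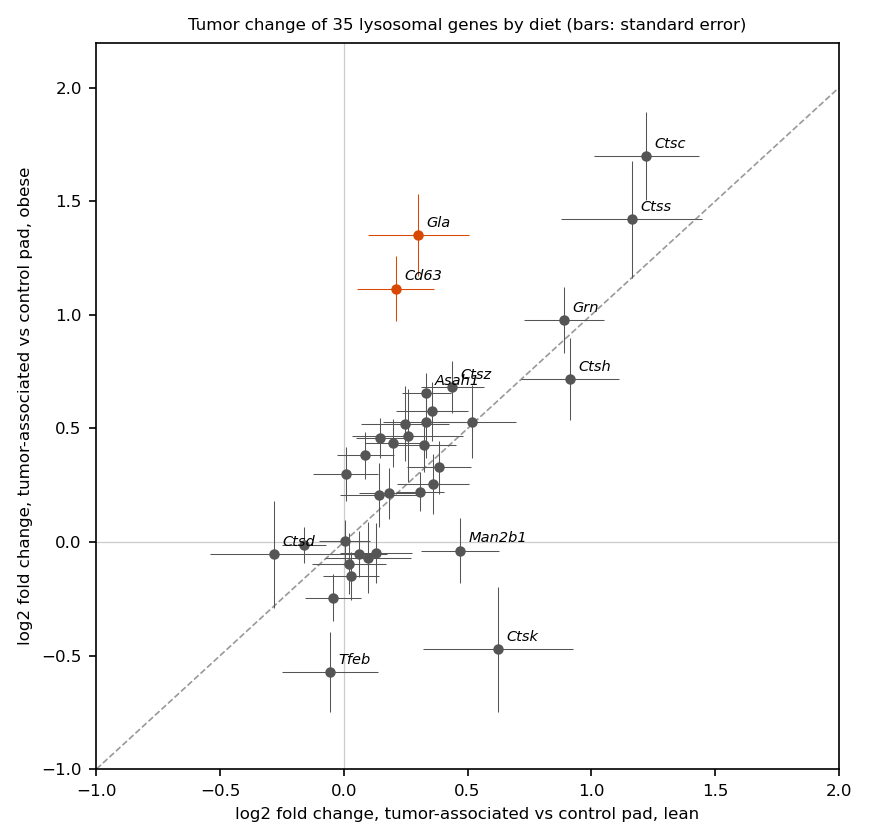
Tumor change (log2 fold change of tumor-associated over control pads) in lean mice (horizontal axis) and in obese mice (vertical axis) for the 35 members, with standard errors as bars and equal changes on the dashed line. Gla and Cd63, in orange, are the members for which the difference was called, and Ctsk is the farthest below the line.

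The 6 obese tumor-associated libraries differed among themselves. Between the pads of one mouse, 33 of 35 members were higher in the tumor-associated pad in mice 1 and 3, 26 in mouse 8, 25 in mouse 0, 23 in mouse 2 and 17 in mouse 4. The median change of the members was 0.56, 0.50, 0.37, 0.33, 0.16 and -0.11 (log2 CPM) in that order of mice. Over all genes tested the medians were -0.001, -0.04, -0.04, -0.02, 0.03 and -0.02 in the same order. In lean mice between 20 (mouse 6) and 32 (mice 2 and 9) members were higher. Obese mouse 4 was the lowest of the 6 tumor-associated libraries for 20 members and the highest for 4 (Gla, Asah1, Cd63 and Atp6v1h). Mice 0, 2 and 4, which had the most germline and embryonic RNA, were all below mice 1, 3 and 8 for 17 members and all above for 1, Cd63, where 20.3% of all genes tested were below and 27.3% above in this way. These orders are a description and no test was made, since the mice were set apart by what their libraries hold.

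The members that were low in mice 0, 2 and 4 include genes of every role. Lipa was 219, 166 and 123 CPM in the tumor-associated pads of mice 0, 2 and 4, against 306, 254 and 336 CPM in mice 1, 3 and 8. Psap was 2029, 1679 and 1560 CPM against 2628, 2673 and 2839 CPM in the same mice. For Hexa the values were 198, 128 and 108 CPM against 230, 208 and 227 CPM. The summed level of 13 macrophage markers was 5133, 2722 and 1949 CPM in mice 0, 2 and 4 and 5360, 5121 and 5002 CPM in mice 1, 3 and 8. Adipocyte markers were 3820, 8794 and 2213 CPM in mice 0, 2 and 4 and 14330, 10880 and 12140 CPM in mice 1, 3 and 8. Without mice 0, 2 and 4, 22 members were higher and 0 lower in obese tumor-associated IWAT. The share of all genes called in that fit is not given here. Its median log2 fold change was 0.46 for the members and -0.08 for all genes tested, beside 0.33 and -0.02 with all libraries. Lipa, Psap, Lamp1 and Lamp2 passed in that fit with rises of 0.81, 0.48, 0.36 and 0.46 (edgeR adjusted p = 0.00241, 0.00491, 0.0172 and 0.00843). The part of macrophages, of adipocytes or of cells other than adipose tissue in these differences was not tested.

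**Figure D4:**
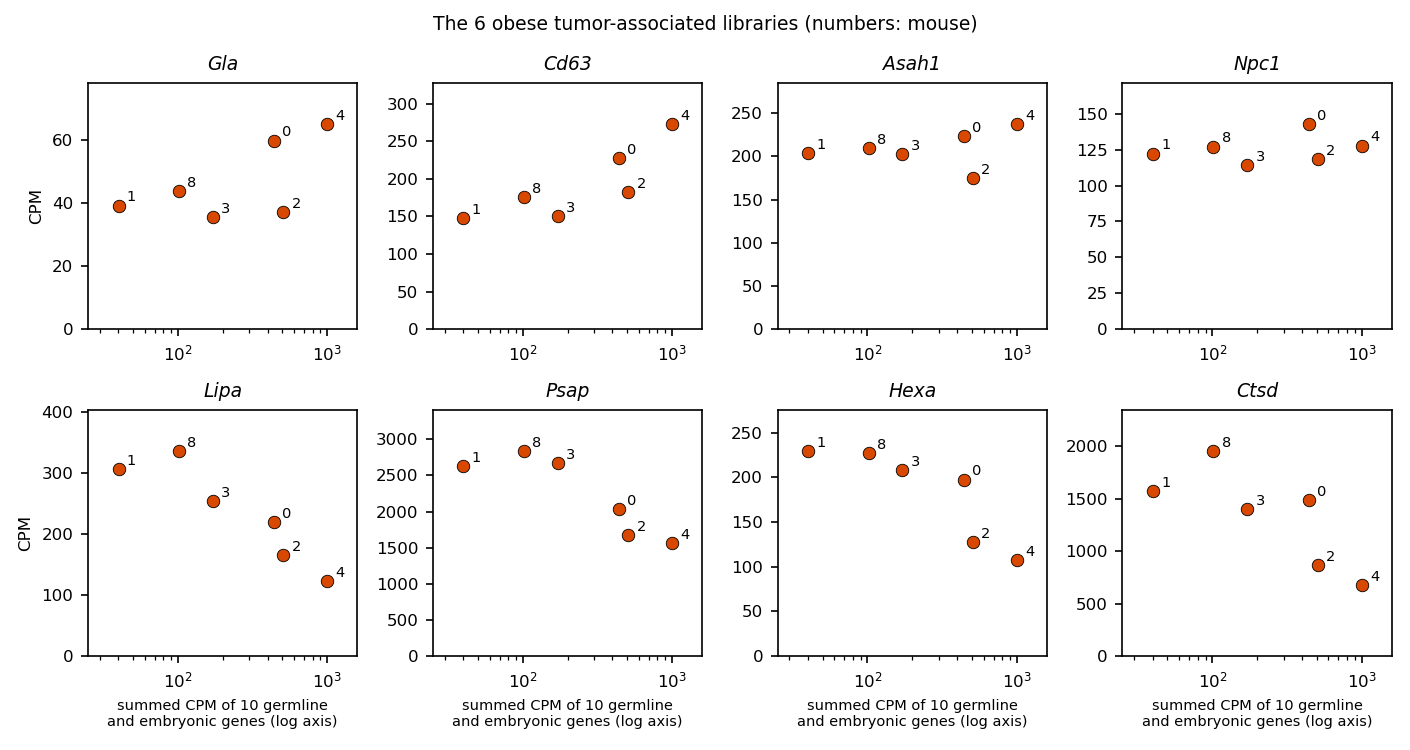
Level in CPM (vertical axes, from 0) of 8 members in the 6 obese tumor-associated libraries against the summed CPM of 10 germline and embryonic genes (horizontal axes, log scale), each point labeled with its mouse. Cd63 and Gla are highest and Lipa, Psap, Hexa and Ctsd lowest in mouse 4, whose summed germline and embryonic level of 999.7 CPM is the highest.

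Macrophage markers are set beside the members here, without a test of association. Their summed level was 870 to 1755 CPM in lean control, 1887 to 4057 CPM in lean tumor-associated, 1315 to 1779 CPM in obese control and 1949 to 5360 CPM in obese tumor-associated IWAT, with none of the 13 at 0 in any group. In lean mice 10 of 13 were called higher in tumor-associated IWAT and in obese mice 11 of 13, where 4 and 19 of the 35 members were. Of all genes tested 3.27% and 26.8% were called higher in these comparisons. Between obese and lean control IWAT only 2 of 13 macrophage markers were called, both higher, with a median log2 fold change of 0.27, where 16 of 35 members were higher with a median of 0.37. Adipocyte markers had a median of -0.59 near the tumor in lean mice (0 of 12 called) and of -1.33 in obese mice (11 of 12 lower). The germline and embryonic genes were all 10 higher in obese tumor-associated IWAT. That list was picked because it sets these libraries apart, so this count was fixed in advance. Of the proliferation markers, 6 of 6 were higher in obese tumor-associated IWAT. Of 8 fibroblast markers 4 were higher in lean mice, and 4 were higher and 2 lower in obese mice. Of 6 endothelial markers 4, and of 7 epithelial and mammary markers 6, were lower in obese tumor-associated IWAT, and all 7 epithelial and mammary markers were lower in obese than in lean tumor-associated pads. The part of any of these cell types in the changes of the members was not tested.

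The other genes of the pathway were taken from 7 lists of 140 genes, of which 132 were tested. In lean mice 8 (6.06%) were higher and 1 (0.758%) lower near the tumor, with a median of 0.04, where 3.27% and 0.913% of all genes were. In obese mice 42 (31.8%) were higher and 32 (24.2%) lower, with a median of 0.05, near the 26.8% and 27.7% of all genes. The counts of the single lists are to be read against these shares of all genes. Between the diets 36 (27.3%) were higher and 2 (1.52%) lower in obese control IWAT, beside 9.54% and 7.53% of all genes, and 49 (37.1%) were higher and 12 (9.09%) lower in obese tumor-associated IWAT, beside 24.7% and 22.4%.

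Of 29 further acid hydrolases, 3 were higher in lean mice, and 11 were higher and 7 lower in obese mice. Lgmn, the asparagine-specific protease legumain that processes cathepsins, went from 73.8 ± 14.5 to 230 ± 94.9 CPM in lean (SD, n = 5) and from 174 ± 25.6 to 648 ± 195 CPM in obese mice (SD, n = 6), rises of 1.64 and 1.90 (edgeR adjusted p = 0.000705 and 5.77e-06). Acp5, tartrate-resistant acid phosphatase, fell by 1.28 in obese mice (edgeR adjusted p = 0.000166), in 6 of 6. Of 21 further membrane and transport genes tested, Cd68, a lysosomal membrane protein that is also one of the 13 macrophage markers, rose by 1.61 in lean and 1.43 in obese mice (edgeR adjusted p = 0.00472 and 0.000316). Abca2, a lipid transporter, fell by 0.60 in lean mice (edgeR adjusted p = 0.016) and Mfsd8 by 1.13 in obese mice (edgeR adjusted p = 0.000176). In total 1 gene of this list was higher and 1 lower in lean mice, and 8 were higher and 4 lower in obese mice.

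Of 15 further vacuolar ATPase subunits tested, 1 was higher in lean mice, and 6 were higher and 2 lower in obese mice. Tcirg1, the a3 subunit of the V0 part, rose by 0.54 in lean and 1.04 in obese mice (edgeR adjusted p = 0.0142 and 1.66e-06). Atp6v0e2 fell by 1.69 in obese mice (edgeR adjusted p = 0.000311). Atp6v1c1 and Atp6v1g1 had a larger change near the tumor in obese than in lean mice, by 0.48 and 0.69 (edgeR adjusted p = 0.0463 and 0.0373). They were the only 2 of the 132 genes so called (1.52%), beside 2.58% of all genes. Whether these 2 calls hold with a library left out was not looked at. Atp6v0d2, named after its values were seen, was higher in obese mice by 4.05 in control and 3.66 in tumor-associated IWAT, the largest differences in the list. Its tumor change in lean mice was 0.52 with an SE of 0.59. Its levels per library are not given here, and whether low counts in lean mice have a part in these differences was not tested.

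Of 21 genes that deliver enzymes to lysosomes, 0 were called in lean mice, and 7 were higher and 5 lower in obese mice. M6pr, the cation-dependent receptor for mannose 6-phosphate, rose by 0.52 (edgeR adjusted p = 0.00029), and Sort1, the sorting receptor sortilin, fell by 1.44 (edgeR adjusted p = 0.000526). Of 20 genes of the TFEB family and of mTORC1 control, 1 was higher in lean mice, and 7 were higher and 4 lower in obese mice. Tfec, a relative of TFEB found in myeloid cells, rose by 2.10 in lean and 2.12 in obese mice (edgeR adjusted p = 0.0209 and 0.000526), whereas Mtor fell by 0.34 in obese mice (edgeR adjusted p = 0.00124). Of 6 genes tested from a list of cathepsin inhibitors, 2 were higher in each diet, with Serpina3n rising by 1.31 in lean (edgeR adjusted p = 0.0393) and Cstb, cystatin B, by 0.72 in obese mice (edgeR adjusted p = 0.00036). The list holds serpins as well as cystatins, and whether they act on the cathepsins among the members was not looked at. Of 20 autophagy genes, 0 were called in lean mice, and 1 was higher and 10 lower in obese mice, Atg5 by 0.20 (edgeR adjusted p = 0.0199) and Map1lc3a by -1.26 (edgeR adjusted p = 0.000282).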

How the data were processed

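The authors extracted total RNA, depleted ribosomal RNA, trimmed the reads with prinseq, aligned them to mm10 with STAR 2.4.0f and counted them per gene with HTSeq. They deposited raw counts per gene symbol for 22 libraries without normalization. The strand setting and the annotation are not given in the sources used here. The 5 HTSeq lines that name no gene were left out; reads on no feature made up 38.5 to 48.8% of a library. No 2 libraries of a group agreed within sampling noise (lowest chi-square per degree of freedom 5.69).

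The counts were analyzed in R 4.3.3 with edgeR 4.0.16 (TMM, default filter by group, quasi-likelihood test, Benjamini-Hochberg adjustment over all genes tested, threshold 0.05), with all 22 libraries as 4 groups and no block. DESeq2 1.42.0, other normalizations and filters, the groups alone, a block for the mouse and fits that each drop 1 library were alternatives. Leaving out obese tumor-associated mice 0, 2 and 4, or obese control mice 1 and 3, was chosen after seeing the data. CPM are TMM-normalized; changes per mouse use log2 CPM with a prior count of 2. The script was tested on simulated data. p-values cover the spread between mice.

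Both pads of a mouse come from 1 animal, as the study's design states, and the number in the labels names it. Deviations from the group means correlated between the pads of a mouse (lean mice, median 0.508, 5 of 5 pairs over 0.1; obese mice, median 0.168, 4 of 6).

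The members and lists were chosen with earlier results of these data known. Values per lean library are given for members called in at least 3 of 4 pairwise comparisons or in the obese minus lean difference, and for the largest change of each role in each tumor comparison. Their obese groups are given mostly as a range and median. From each pathway list the text names, for each tumor comparison, the called genes with the largest rise and fall and at least 10 counts in every library of the higher group; others are named as chosen after their values were seen or through another result.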

Additional observations from a re-analysis of the deposited data

Results flagged for a closer look

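The obese minus lean difference of the tumor change was called for Gla (1.05 on the log2 scale) and Cd63 (0.91), which is why both are listed here. In the 16 members given by lean library, 64 sets of 5 or 6 libraries, lean and obese, were searched for a library far from the rest of its group by Dixon's test, and 3 were found, where chance gives about 5% of sets. Ctsa was 102 CPM in lean tumor-associated mouse 6, with 148 CPM in the next. Npc1 was 85.8 CPM in obese control mouse 8, with 91.1 CPM in the next. Cd63 was 77.3 CPM in lean control mouse 2, with 99.96 CPM in the next.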

How the results depend on the processing

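Of the 61 member calls, 44 held in every alternative run and none changed direction. Groups compared alone gave 7 members in lean mice instead of 4, all higher, and leaving out obese tumor-associated mice 0, 2 and 4 gave 9, all higher. In obese mice 2 members instead of 1 were lower near the tumor with DESeq2, upper-quartile or RLE normalization or at least 10 counts in every library (Tfeb and Gaa), and 0 without obese tumor-associated mice 0, 2 and 4. The obese minus lean difference was called for 0 members with no filter on low counts, for 0 without those 3 mice and for 1 without obese control mice 1 and 3. When each library was dropped, the members called ranged from 2 to 9 in lean mice, from 17 to 23 in obese mice (16 to 22 higher, 1 to 3 lower), from 13 to 17 between control pads, from 17 to 22 between tumor-associated pads and from 0 to 3 for the obese minus lean difference (0 to 2 higher, 0 to 1 lower). With the mouse as a block, 6 members were called in lean mice, 21 in obese mice and 2 for the difference, and the block changed no call other than those of Manba, Man2b1 and Lipa. For alternatives other than leaving out 1 library, the share of all genes called is not given here, so their member counts stand without a background. Over all genes the obese minus lean count ranged from 1 to 3568 with 1 library left out (without lean tumor-associated mouse 0 and obese tumor-associated mouse 1), beside 711. In such fits 6915 to 8403 genes were called in obese mice, beside 7882. Between tumor-associated pads 5902 to 7464 genes were called, beside 6802. All libraries share an estimate of the spread in the fit, so leaving out a library also reaches comparisons of other groups. The cause of these shifts was not tested. What depth limits was not tested.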
